A study of Mus musculus with 2 samples.

Results

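Transcript signals of 5 genes that handle peroxides, selenium, iron and metal ions were examined in osteoblasts taken from mice, the cells that build bone, cultured with or without the growth factor TGF-beta1. The genes were Prdx1, Prdx2, Fth1, Selenow and Mt3, taken by gene name or RefSeq accession, and each had 1 probe among the 3757 probes of the array. Their names had been chosen with their values known, so every ratio below is a description of 2 arrays and none is a test. The TGF-beta1 group was 1 sample of osteoblasts given 2 ng/ml TGF-beta1 for 24 h. The untreated group was 1 sample without it. Both cultures were serum-starved in alphaMEM with 0.2% fetal bovine serum. The labels do not give the mouse strain, the age or the number of animals behind a culture. With 1 sample in each group there was no spread between replicates, no error of any value and no p-value.

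Peroxiredoxins are thiol enzymes that reduce hydrogen peroxide and organic peroxides, and the thioredoxin system returns them to their active form. Ferritin is a protein shell that stores iron as a mineral, and its heavy chain oxidises ferrous iron, which keeps free iron from turning peroxides into radicals. Selenoproteins carry selenocysteine, and metallothioneins are small cysteine-rich proteins that bind zinc and copper. In bone, oxidants act on both the osteoblast and the bone-resorbing osteoclast, and antioxidant enzymes limit them.

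Prdx1 and Prdx2 are close relatives whose measured ratios pointed in opposite directions. The Prdx1 signal with TGF-beta1 lay under the signal threshold given below, so the size of that contrast is not settled. The sequence before the start of Prdx1 is shown beside that of Prdx2, and no link between sequence and ratio was tested. That of Fth1 is also shown, whose ratio was the farthest from 1 among the members detected on both arrays. Each run is the 250 bases before the annotated start, from RefSeq on build GRCm38.p6, on the plus strand. The windows are chr4:116685349-116685598 for Prdx1, chr8:84969372-84969621 for Prdx2 and chr19:9982396-9982645 for Fth1, for which the table holds 2 starts and the one farther along the chromosome is shown. The table does not say which start belongs to the transcript of the probe, so the Fth1 window may not be that of the measured transcript. Capitals mark matches to the core of the antioxidant response element, TGACNNNGC, which the oxidant-sensing factor Nrf2 binds with a small Maf protein, or to an AP-1 site, TGANTCA, each searched on both strands.
Prdx1: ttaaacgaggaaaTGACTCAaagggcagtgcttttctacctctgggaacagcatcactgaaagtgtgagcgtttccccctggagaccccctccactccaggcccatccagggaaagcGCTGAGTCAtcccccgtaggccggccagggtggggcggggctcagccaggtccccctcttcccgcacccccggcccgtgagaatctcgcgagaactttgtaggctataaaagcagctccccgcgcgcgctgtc
Prdx2: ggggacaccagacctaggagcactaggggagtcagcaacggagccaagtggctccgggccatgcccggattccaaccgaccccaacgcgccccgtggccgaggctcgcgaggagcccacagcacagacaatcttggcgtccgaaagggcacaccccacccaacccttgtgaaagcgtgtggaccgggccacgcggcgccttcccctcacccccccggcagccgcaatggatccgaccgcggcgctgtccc
Fth1: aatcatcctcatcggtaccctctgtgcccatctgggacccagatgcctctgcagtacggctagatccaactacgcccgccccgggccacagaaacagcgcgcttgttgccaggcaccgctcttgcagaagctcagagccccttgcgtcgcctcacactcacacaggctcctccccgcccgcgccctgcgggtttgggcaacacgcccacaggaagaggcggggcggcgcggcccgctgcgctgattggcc

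In the window of 300 bases that runs from 250 before to 50 after the start, Prdx1 held 1 match to the antioxidant response element core. The match lay on the minus strand with its leftmost base at -133 from the start. An AP-1 match with its first base at -131 overlapped it, and a second AP-1 match began at -237. Neither motif matched in the windows of the other 4 genes. Of 32851 windows of this length in the table, 12.4% held the first motif and 7.81% the second. A loose pattern for the core of the metal response element, TGCNCNC, matched 3 times for Mt3 and 3 times for Selenow. Some of these matches on opposite strands overlapped. It also matched 3 times for Mt1, another metallothionein, and 51.0% of all windows held it. The GC box, GGGCGG, matched 1 time each for Prdx1 and Prdx2 and 3 times in the Fth1 window shown. It matched 0 times for Selenow, Mt3 and the other Fth1 window, and 35.7% of all windows held it. The Smad palindrome GTCTAGAC matched in 0 windows of the 5 genes and in 0.213% of all windows. These matches describe the letters of the windows, and no binding was measured here.

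Each sample was hybridised in 1 colour, Cy3, to an array of its own, and the values are normalized spot intensities in arbitrary units. A probe was called above the signal threshold when its intensity exceeded 87.4, the level of the brightest spot of lambda phage DNA, a negative control, averaged over both arrays. On the TGF-beta1 array 866 probes exceeded it, and on the untreated array 924 did. Both arrays had 795 of these in common, and 200 probes exceeded the threshold on 1 array only. The median log2 ratio of TGF-beta1 over untreated was 0.03 over the 795 probes, with an SD across probes of 0.44. The array carried 6 osteoblast markers, and 5 were detected on one or both arrays. The summed signal over the 6 was 2840 on the TGF-beta1 array and 3355 on the untreated array. Of the 4 detected on both arrays, 1 was higher and 3 were lower with TGF-beta1. Col1a2 and Bglap had log2 ratios of -0.05 and -0.01, Sparc had -0.58 and Alpl had 0.39. Ibsp had 240 without TGF-beta1 and 47.9 with it, the second value under the threshold. In bulk samples such as these, fewer cells of a type and less RNA per cell cannot be told apart.

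Among the 5 genes, Fth1 and Prdx1 had lower signals with TGF-beta1, and Prdx2 and Selenow had somewhat higher ones, while Mt3 was slightly lower. Of the 4 genes detected on both arrays, 1 was at least 2-fold lower and 0 were at least 2-fold higher. The same call was met by 2.26% of the 795 probes in the lower direction and by 1.51% in the higher direction. These are 18 lower and 12 higher probes, which became 10 and 19 once block medians over all probes were subtracted and 10 and 25 with the neighbours' medians. The genes were picked from these ratios, so nothing is read from that count. The spread of the 8 lambda control spots, an SD of 0.20 on the log2 scale, is the one repeated measure within the arrays. It comes from dim spots of 1 block and is not the error of any gene.

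**Figure D1:**
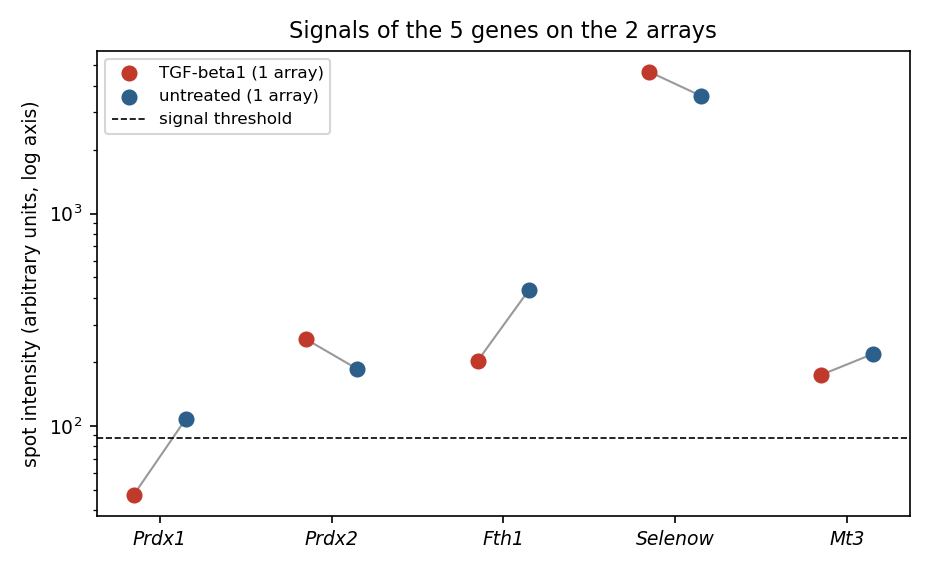
Spot intensity (log axis, arbitrary units) of the 5 genes, with the TGF-beta1 array as the left point and the untreated array as the right point of each pair, 1 array each; the dashed line is the signal threshold of 87.4. Of the 4 genes detected on both arrays, Fth1 differs most between them, and Prdx1 with TGF-beta1 is the only point under the threshold.

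Fth1 encodes the heavy chain of ferritin, the subunit with the ferroxidase activity. Its probe had a signal of 202 on the TGF-beta1 array, against 438 on the untreated array. Both lie above the threshold, at 2.31 and 5.01 times its level on the TGF-beta1 and the untreated array. The signal was 2.17-fold lower with TGF-beta1, a log2 ratio of -1.12. This was the 11th lowest ratio of the 795 probes. Among the 100 such probes nearest to Fth1 in mean log2 signal, 3 had a lower ratio. The light chain, which helps the mineral core to form, was lower by less. Ftl1 had a signal of 155 on the TGF-beta1 array and 199 on the untreated array, a log2 ratio of -0.36. Ferritin genes have processed copies in the mouse genome, and signal shared with them was not separated.

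Prdx1 is an abundant cytosolic peroxiredoxin with a pair of active cysteines. Its probe had a signal of 47.4 on the TGF-beta1 array, against 107 on the untreated array. The TGF-beta1 value lies under the threshold and the untreated value at only 1.23 times its level, so the size of the difference is not settled by these arrays. The measured log2 ratio was -1.18, or -0.73 after loess and -0.50 with an offset of 96.7 on every signal. Setting the dim side at 87.6, the dimmest value that passed the threshold on the TGF-beta1 array, gave a bound of 1.22-fold lower for Prdx1. This bound is on the deposited intensities, with no median by place on the array subtracted. Around Prdx1 the median log2 ratio was -0.14 over the block and -0.30 over the neighbours, so the bound is not a floor once these are subtracted. Of the 995 probes detected on either array, 13% passed on the untreated array only, as Prdx1 did, and 7.14% on the TGF-beta1 array only. Of the 129 probes seen on the untreated array only, 51 had a bound at least as large as that of Prdx1.

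Fth1 and Prdx1 stood in the same block of the array, K1, 2 rows and 5 columns apart. That block held 4 of the 18 probes that were at least 2-fold lower above the threshold on both arrays, or 22.2% of them, while it held 2.89% of the 795 probes. The next highest number in any of the 48 blocks was 2. Besides Fth1, the probes were the tubulins Tuba4a and Tuba3a and the vomeronasal receptor Vmn2r122, with log2 ratios of -1.21, -1.08 and -1.27. Signal shared between Tuba4a and Tuba3a was not separated, so the 4 calls may not be independent. The median log2 ratio of the 33 detected probes of K1 was -0.12, and -0.01 over the 28 with a log2 ratio above -1. Dropping the lowest ratios raises a median by construction, so the second value cannot show whether the rest of the block was shifted. The 8 spots touching Fth1 ran from -0.42 to 0.36, with 6 of them below 0 and a median of -0.17. For Prdx1 the 4 measured touching spots ran from -0.54 to 0.30, and the median of the 10 spots within 2 rows and 2 columns was -0.30. After the block median over all probes was subtracted, Fth1 had a log2 ratio of -0.97 and was 1.96-fold lower, just under the 2-fold call. It was 1.99-fold lower with the median of the detected probes and 1.96-fold lower with that of the spots within 2 rows and 2 columns. An offset of 96.7 added to every signal also ended the 2-fold call, with a log2 ratio of -0.84. Prdx1, by its measured ratio, went to -1.03, -1.06 and -0.87 in the same order. The part of block K1 in either result was not tested beyond these values.

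**Figure D2:**
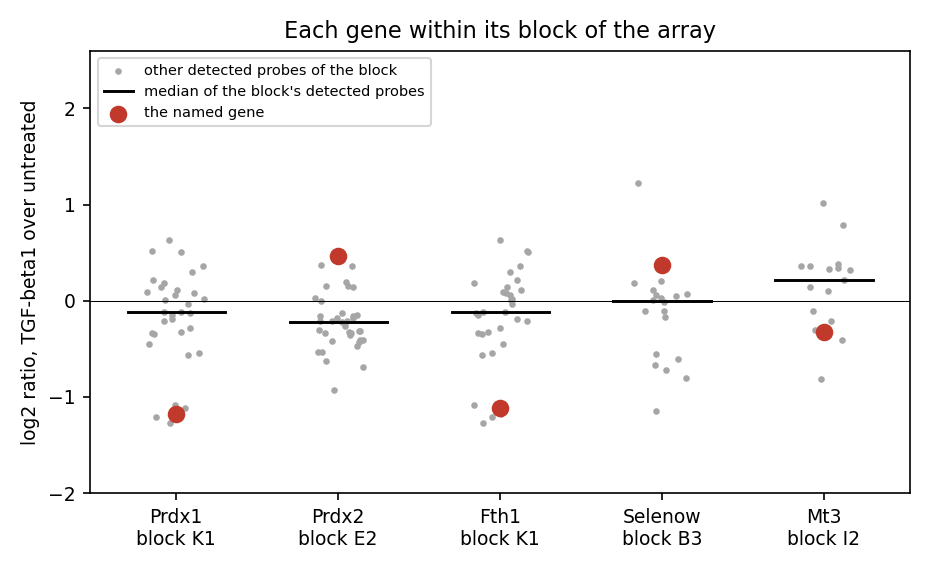
Log2 ratio of TGF-beta1 over untreated for each of the 5 genes (large points) among the other detected probes of its block (small points), with the median of the block's detected probes as a bar. Fth1 lies in the low tail of block K1, whose median is -0.12, and Prdx2 is the highest of block E2. Prdx1 is drawn at its measured ratio, with a TGF-beta1 signal under the threshold.

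Prdx2, a second cytosolic peroxiredoxin abundant in red blood cells, had the opposite direction. Its signal was 256 on the TGF-beta1 array, against 185 on the untreated array. The difference was 1.38-fold, a log2 ratio of 0.47. Of the 100 probes nearest in mean log2 signal, 18 had a higher ratio, and within block E2 it was the highest of 37 detected probes. The median of those 37 was -0.22. Subtracting it gave Prdx2 a log2 ratio of 0.69, and 1.62-fold in place of 1.38-fold. The difference therefore stayed under 2-fold in either form. Of the erythroid markers on the array, 0 of 4 exceeded the threshold on either array, and their summed signal was 174 with TGF-beta1 and 171 without. Only 4 of the 11 listed erythroid genes had a probe, so this count says little about such cells. Their part in the Prdx2 signal was not tested.

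The other members of the peroxiredoxin family were not detected. Prdx3, the mitochondrial form, had signals of 29.4 with TGF-beta1 and 45.7 without. Prdx4, the form of the endoplasmic reticulum, had 35.6 with TGF-beta1 and 31.1 without. Prdx5 had 37.8 and Prdx6 had 32.0 with TGF-beta1, against 43.3 and 44.1 without. All 8 of these values lie under the threshold, so no fold is given for them. The spot counted as Prdx6 is named peroxiredoxin 5 in the file, and its accession belongs to Prdx6. Txnrd1, the selenoenzyme that reduces thioredoxin and so keeps peroxiredoxins active, was bright and almost equal on the arrays. It had 1840 with TGF-beta1 and 1882 without, a log2 ratio of -0.03, or 0.03 after subtraction of the block median of all probes. Among the 100 probes nearest to Txnrd1 in mean log2 signal the median ratio was 0.19, and 70 had a higher ratio.

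Selenow encodes selenoprotein W, a small selenoprotein first described in muscle, and its probe was the brightest of all 3757 on each array. It had a signal of 4652 on the TGF-beta1 array, against 3586 on the untreated array. The log2 ratio was 0.38, or 1.30-fold. Among the 100 probes nearest in mean log2 signal the median ratio was 0.18, and 30 had a higher ratio than Selenow, so bright probes as a group also leaned towards the TGF-beta1 array. Whether the spot was saturated is not given in the sources used here. Quantile normalization sets the brightest probe of each array to 1 shared value, and the ratio then became 0 by construction. Loess on the mean signal left a log2 ratio of 0.12. Subtraction of the neighbours' median, over 10 spots of which 3 were detected, raised it to 1.16, and that of the block's detected probes left it at 0.38. The size of the difference for Selenow thus ran from 0 to 1.16 with the scaling, and no setting put it lower with TGF-beta1.

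Other selenoproteins were mostly under the threshold. Of 11 genes of the selenoprotein list on the array, Selenow and Txnrd1 were detected and 9 were not, a detected share of 18.2% beside 26.5% of all probes. Gpx1, the cytosolic glutathione peroxidase, had 36.5 with TGF-beta1 and 39.3 without. Gpx4, which reduces lipid peroxides in membranes, had 36.9 with TGF-beta1 and 47.4 without. Selenop, the plasma carrier of selenium, had 28.7 with TGF-beta1 and 33.6 without. These values are all under the threshold, which says that the probes were not clearly above the control spots and does not show that the transcripts were absent. Skeletal muscle markers were detected in 5 of 8 cases, with a summed signal over the 8 of 1718 on the TGF-beta1 array and 2023 on the untreated array. Of the 4 detected on both arrays, 2 were higher and 2 lower. Tnnc2 had 502 with TGF-beta1 and 808 without, and Myod1 had 739 with TGF-beta1 and 646 without. Leaving out Tnnc2, a choice made after its value was seen, the sums were 1216 with TGF-beta1 and 1214 without. Most of both sums was Myod1, so they do not show that the other muscle markers were unchanged. Casq1 had a log2 ratio of -0.51 and Tnnt3 had 0.16, and Tnnc1 was detected without TGF-beta1 only. The part of such cells in the Selenow signal was not tested.

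Mt3 encodes metallothionein 3, a form best known from brain. Its signal was 174 on the TGF-beta1 array, against 218 on the untreated array. The log2 ratio was -0.33, or 1.25-fold lower with TGF-beta1, and 22 of the 100 probes nearest in mean signal had a lower ratio. In block I2, whose 17 detected probes had a median of 0.22, Mt3 had the third lowest ratio. Subtracting that median gave -0.54. Mt1, a widely expressed and metal-inducible metallothionein, was bright, with 708 on the TGF-beta1 array and 774 on the untreated array, a log2 ratio of -0.13. Metallothioneins are short and alike, and signal shared between Mt1 and Mt3 was not separated. Of the neural and glial markers 3 of 5 were detected, and they went both ways. The summed signal over the 5 was 1995 with TGF-beta1 and 1616 without. Syn1 had 1109 with TGF-beta1 and 786 without, and Mbp had 756 with TGF-beta1 and 569 without. S100b, an astrocyte marker, was detected without TGF-beta1 only, with 68.3 with TGF-beta1 and 151 without. Syp was under it on both, with 24.7 with TGF-beta1 and 77.7 without. The part of such cells in the Mt3 signal was not tested.

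**Figure D3:**
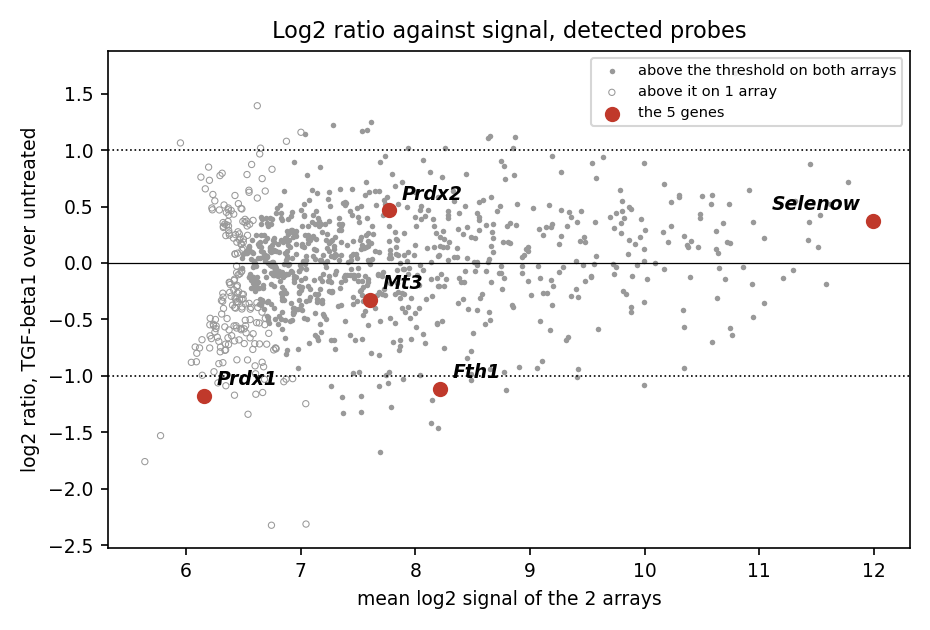
Log2 ratio of TGF-beta1 over untreated against the mean log2 signal for the 795 probes above the threshold on both arrays (filled) and the 200 above it on 1 array (open), with the 5 genes as large points; dotted lines mark 2-fold. Fth1 at -1.12 lies beyond the lower line, Prdx1 is at the dim edge, and Selenow is the rightmost point.

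The wider set of redox, selenoprotein, iron and metal genes held 147 names, of which 71 had a probe. Without the 5 genes described above, 10 of 66 probes were detected, or 15.2% beside 26.5% of all probes. All 10 were detected on both arrays. Of these 10, 4 had higher and 6 had lower signals with TGF-beta1, and 0 passed 2-fold in either direction, beside 2.26% lower and 1.51% higher of all 795 probes. Their median log2 ratio was -0.07, beside 0.03 over all 795 probes. With the 4 members detected on both arrays added, 6 were higher and 8 lower, 1 was at least 2-fold lower, and the median was again -0.07. The split turned to 8 higher and 6 lower after subtraction of the block median of all probes or of the neighbours' median, with list medians of 0.060 and 0.11 and medians over the 795 probes of 0.15 and 0.17. The remaining 56 probes were under the threshold on both arrays, with signals between 4.81 and 86.9 with TGF-beta1 and between 17.8 and 80.4 without.

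The largest difference among the 10 was in Gpx5, a glutathione peroxidase known from the epididymis that carries no selenocysteine. It had 152 on the TGF-beta1 array and 301 on the untreated array, 1.99-fold lower with TGF-beta1. It passed 2-fold after each subtraction by place on the array, at 2.02-fold lower with the block median of all probes, 2.07-fold with that of detected probes and 2.04-fold with that of neighbours. It was the one gene detected of the 16 glutathione genes on the array, or 6.25% beside 26.5% of all probes. Hmox1, the heme oxygenase that releases iron from heme and is a classic target of Nrf2, had 112 with TGF-beta1 and 121 without, a log2 ratio of -0.11, or 0.17 with the neighbours' median subtracted. Mafg, a small Maf partner of Nrf2, had 246 with TGF-beta1 and 213 without, a log2 ratio of 0.21. The superoxide dismutases Sod2 and Sod3, catalase and the copper chaperone Ccs were all under the threshold, as were the 5 genes of oxidant production on the array. Macrophage markers, whose cells hold much ferritin, were detected in 0 of 2 cases, with summed signals of 114 with TGF-beta1 and 102 without. Only Ptprc and Mpo of the 11 listed macrophage genes had a probe, so this count says little about such cells. Their part in the Fth1 signal was not tested.

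Iron transport genes showed small differences beside that of Fth1. Slc11a1, a metal transporter of phagosomes, had 2241 with TGF-beta1 and 1742 without, a log2 ratio of 0.36. Among the 100 probes nearest to Slc11a1 in mean log2 signal the median ratio was 0.18, and 31 had a higher ratio. Slc11a2, the transporter of ferrous iron in most cells, had 163 with TGF-beta1 and 160 without, a log2 ratio of 0.02. Tfr2, a transferrin receptor that senses iron, had 280 with TGF-beta1 and 306 without, a log2 ratio of -0.13, which became 0.087 with the block median of all probes subtracted and 0.27 with the neighbours' median. The copper pump Atp7b was near the threshold, with 105 with TGF-beta1 and 93.7 without, a log2 ratio of 0.17. Slc40a1, the iron exporter ferroportin, was under the threshold on both arrays.

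**Figure D4:**
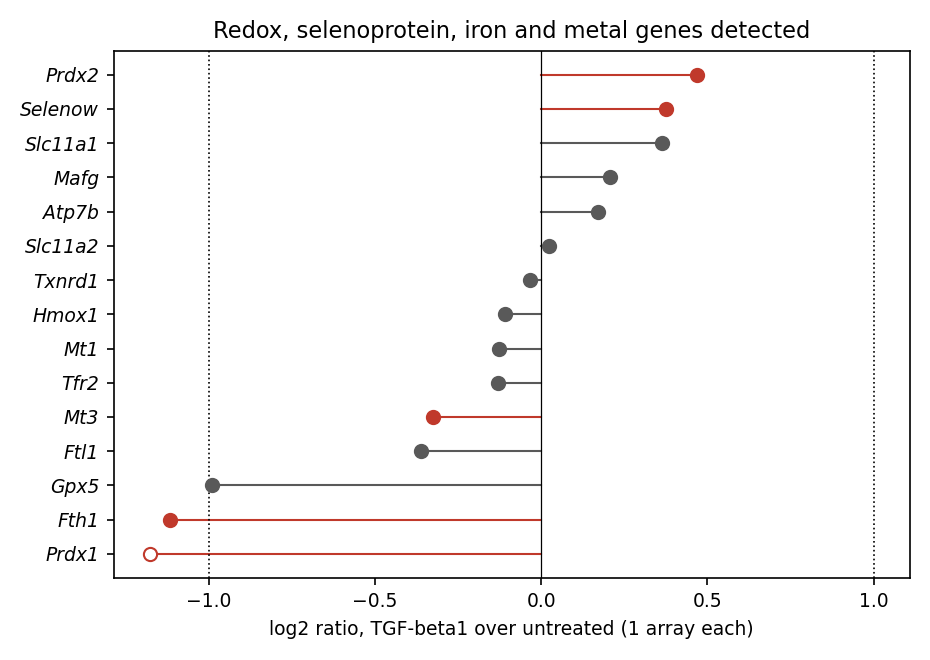
Log2 ratio of TGF-beta1 over untreated for the 15 redox, selenoprotein, iron and metal genes detected on at least 1 array, sorted by ratio; the 5 genes are in red, the open point (Prdx1) was detected on the untreated array only, and dotted lines mark 2-fold. Fth1 and Gpx5 lie lowest among the 14 genes detected on both arrays, and the other 12 of these lie between -0.36 and 0.47. The position of Prdx1 rests on a TGF-beta1 signal under the threshold, and its bound of 1.22-fold is without subtraction of medians by place on the array.

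With 2 arrays the pattern of a gene across samples is a pair of numbers, so likeness was taken as the distance between probes in the log2 signals of both arrays, among named probes above the threshold on both. Nearest to Fth1 were Tuba4a at a distance of 0.12 and Chek2 at 0.25, and Tuba4a lies in the same block. Nearest to Prdx2 were Krt16 at 0.059 and Slc23a1 at 0.076. Nearest to Mt3 were Stx1a at 0.0099 and Proc at 0.082. Selenow had no close neighbour, with Msc at 0.40 and Cyp46a1 at 0.55. A short distance says that the spots were about equally bright on both arrays and nothing more.

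**Figure D5:**
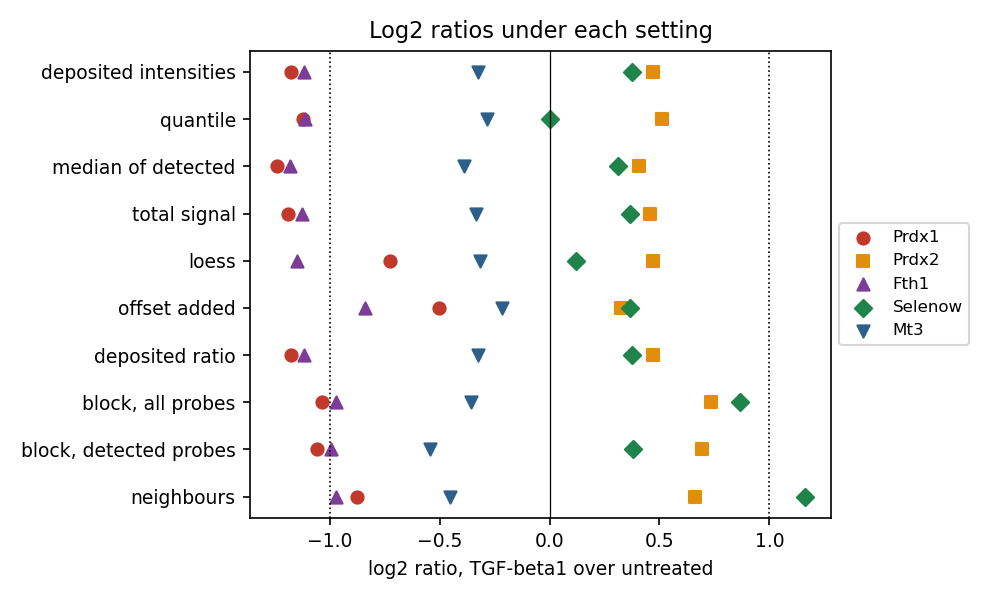
Log2 ratio of TGF-beta1 over untreated for each of the 5 genes (one symbol per gene) with the deposited intensities and under 9 alternative settings, one setting a line; dotted lines mark 2-fold. Fth1, Prdx1 and Mt3 stay below 0 and Prdx2 above 0 throughout, while Selenow runs from 0 to 1.16. The deposited ratio repeats the division of the intensities, and division by a median or total shifts all genes alike.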

How the data were processed

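The deposited values were spot intensity on a linear scale, and per the file headers they had been normalized by a method called global in Atlas Iris 1.01, on arrays of the type Atlas Glass Mouse 3.8. How background, scanning and image reading were done is not given in the sources used here, and 3 TGF-beta1 values lay below 0. The authors' deposited ratio was TGF-beta1 over untreated intensity, and 3754 of 3757 equalled the division of these intensities to within 0.0001, while 3 had no ratio. Columns numbering 16, added up sheet by sheet over 8 sheets of the workbook, matched no sample label and were not used. A name can be counted on more than 1 sheet, so this is not a number of separate arrays.

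Probe identifiers were joined to gene names and array positions through the shared row order of the deposited ratio table and the workbook, whose ratios were equal in every row. RefSeq accessions gave symbols to 3596 probes (GRCm38.p6). Each gene was described by log2 of TGF-beta1 over untreated intensity, with nothing added. A call needed a signal above 87.4 on both arrays and at least 2-fold. With 1 array a group, their number limits the precision.

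The members, the 8 pathway lists and the 5 marker lists were chosen with earlier results of these data known. The text names the 5 members, every other detected pathway gene, close relatives of the members, the 2 probes nearest to each member and up to 2 markers a list. Other genes of block K1, and Sod2, Sod3, Ccs, Slc40a1, Mt4, S100b, Syp, Sparc, Alpl, Ibsp, Casq1, Tnnt3, Tnnc1 and catalase, were chosen after their values were seen. The muscle sum without Tnnc2 was likewise chosen after its value was seen. Alternatives were 4 other normalizations, an added offset, the deposited ratio, subtraction of medians by place on the array, and other filters and fold thresholds. Scripts ran in Python 3.11.15 with numpy 2.4.6, pandas 2.3.3 and statsmodels 0.14.6 and were tested on simulated data with known block effects.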

Additional observations from a re-analysis of the deposited data

How the results depend on the processing

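No error could be set beside any value, so an alternative was taken as a move when it shifted a log2 ratio by more than 0.20, the SD of the lambda spots, or a count by more than 1.5 times. No paired analysis was possible because each group held 1 sample, and leaving a sample out was likewise not possible. Across 9 alternatives the log2 ratio ran from -1.24 to -0.50 for Prdx1, from 0.32 to 0.74 for Prdx2, from -1.18 to -0.84 for Fth1, from 0 to 1.16 for Selenow and from -0.54 to -0.22 for Mt3. Of these, the deposited ratio could not differ beyond rounding. Division by the median of the detected probes or by the total signal moved every gene by the same small amount. With loess Prdx1 was at -0.73 and Selenow at 0.12. An offset of 96.7 on every signal, which by construction shrinks dim ratios, left Prdx1 at -0.50 and Fth1 at -0.84. Quantile normalization left Selenow at 0. Subtraction of the block median of all probes gave 0.74 for Prdx2 and 0.87 for Selenow, that of detected probes gave 0.69 for Prdx2 and -0.54 for Mt3, and that of neighbours gave -0.87 for Prdx1 and 1.16 for Selenow; the cause of these moves was not tested. Subtracting medians over all probes of a block or a neighbourhood moved the median of the 795 probes to 0.15 and 0.17, and the share of them that was higher from 53.2% to 67.3% and 66.3%.

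The counts of 12 higher and 18 lower probes became 1 and 3 with the offset, 19 and 10 after subtraction of the block median of all probes, 25 and 10 after that of neighbours, 6 and 7 above 2 times the threshold, and 57 and 65 at 1.5-fold. Without a threshold they were 23 and 202, and above it on at least 1 array the lower count was 34. The median of the redox, selenoprotein, iron and metal genes turned from -0.07 to 0.060 after subtraction of the block median of all probes, to 0.11 after that of neighbours and to 0.087 above 2 times the threshold; the cause was not tested. Signal over background limits Prdx1 and Atp7b most.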

Other observations

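Another pair of probes belongs to the same families by the name in the file but has no matched symbol, and neither exceeded the threshold. The probe named ferritin light chain 2 had signals of 9.68 on the TGF-beta1 array and 13.3 on the untreated array. The probe named metallothionein-like 5, or tesmin, a testis protein, had 44.1 on the TGF-beta1 array and 55.4 on the untreated array. Metallothionein 4, of stratified epithelium, was under the threshold as well, with 37.3 on the TGF-beta1 array and 36.5 on the untreated array for Mt4.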
